A study of Homo sapiens with 8 samples.

Results

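The genes described here are 57 human genes of DNA repair and of the cellular response to DNA damage, out of 20033 protein-coding genes in the RefSeq annotation of GRCh38.p14. A region of the deposited tables was assigned to a gene when it overlapped the gene's RefSeq span or lay within 3000 bp of it, with a minimum overlap of 1 bp. By that rule the repair genes held 112 of the 35154 regions listed for RBBP4 and 45 of the 20496 regions listed for P300. The rule uses gene names and positions and no measured value, but the 57 genes were chosen with earlier results of these data known.

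The study transfected NCI-H69 cells, a long-established line of human small cell lung cancer, with siRNA against CSNK2B or with non-targeting siRNA, and took chromatin 48 h later. CSNK2B encodes the regulatory beta subunit of the protein kinase CK2. Chromatin was fixed with formaldehyde (1%, 10 min), immunoprecipitated with an antibody to RBBP4 or to P300, and sequenced as paired reads of 150 bp. The 4 groups used are RBBP4 after CSNK2B siRNA, RBBP4 after non-targeting siRNA, P300 after CSNK2B siRNA and P300 after non-targeting siRNA, each with 1 library. The other 4 libraries of the series are inputs and were not used here. Cells of both arms had been through a transfection, and the line derives from 1 tumour. Of 7 neuroendocrine markers of small cell lung cancer, NCAM1 alone had a listed region. The tables measure occupancy and not expression, so neither the cell type nor the loss of CSNK2B was checked here.

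RBBP4 is a histone-binding WD40 protein that serves as a shared subunit of the NuRD and SIN3 deacetylase complexes, of Polycomb repressive complex 2 and of the chromatin assembly factor CAF-1. P300 is the histone acetyltransferase encoded by EP300, which is typically bound at enhancers and promoters. The repair genes fall into a chain of roles. Broken or stalled DNA is sensed by the MRN complex and by the kinases ATM and ATR. The chromatin around the break is then marked through H2AX, MDC1 and the ubiquitin ligases RNF8 and RNF168. TP53BP1 and RIF1 steer the break towards end joining, and BRCA1 and RBBP8 steer it towards resection and homologous recombination. Crosslinks, single-strand breaks and mismatches have their own factors. Small cell lung cancer is treated with platinum and topoisomerase poisons that damage DNA.

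The deposited tables list only regions with an unadjusted p-value below 0.05 in the authors' comparison, so an unlisted gene may still be occupied. The higher library was the one in which the peak had been called for 35151 of 35154 RBBP4 and 20496 of 20496 P300 regions. Listing thus fixed that the reads of the arms differ in each region, and an interval that excludes equal density describes a region and is no support for its direction. In the text a region is higher or lower when its read density (RPKM, reads scaled to region length and to library total) is higher or lower after CSNK2B siRNA than after non-targeting siRNA. Reads per region were recovered from RPKM and width, and those of the CSNK2B siRNA library are called knockdown reads and those of the non-targeting library control reads. Folds are ratios of these reads scaled to the reads in all tested regions, which were 1207945 for the knockdown and 833181 for the control library of RBBP4, and 946392 for the knockdown and 1092789 for the control library of P300. Each fold carries its exact (Clopper-Pearson) 95% interval, which covers counting error only. The read ratio compares 2 libraries and not the conditions, because a difference between arms and a difference between single libraries cannot be told apart. The authors' own log2 fold change differs from this scaling by 0.57 for RBBP4 and -0.43 for P300. It was taken to be scaled to whole libraries, which was inferred from this shift. Regions were listed on that scale, where RBBP4 ratios lie higher and P300 ratios lower than here. Whether an interval includes equal density therefore depends in part on the scaling, for both proteins. The arms were read from column names, for RBBP4 from initials only, and a swap would turn every direction. RBBP4 and P300 carried separate batch labels and were never compared with each other numerically.

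At the repair genes RBBP4 was mostly higher and P300 mostly lower after CSNK2B siRNA. RBBP4 regions were higher in 91 of 112 cases (81.2%) and P300 regions in 13 of 45 (28.9%). Over all regions at protein-coding genes the shares were 77.3% for RBBP4 and 34.8% for P300, so the repair genes followed the drift of each table. Few P300 regions were deep. Of the 6 with at least 20 reads, 3 were higher and 3 lower, so their median log2 ratio of 0.45 gives no direction. The median log2 ratio of RPKM, with 1 added to each value, was 1.66 for the RBBP4 regions of repair genes and 1.64 for all at protein-coding genes. For P300 it was -1.44 at repair genes and -1.67 at all protein-coding genes. The shares of repair genes with such a region lay above those of all protein-coding genes, a description with no test. An RBBP4 region at least 2-fold higher on that scale lay in 39 of the 57 genes (68.4%), against a background of 45.4% of protein-coding genes. A P300 region at least 2-fold lower lay in 23 (40.4%), against 17.5%. Regions in the opposite directions were also more frequent than the background. RBBP4 regions at least 2-fold lower lay in 14 genes (24.6%, background 14.8%) and P300 regions at least 2-fold higher in 11 (19.3%, background 11.5%). With at least 20 reads required, lower RBBP4 regions were left in 1 gene, lower P300 regions in 2 and higher P300 regions in 3. The repair genes are long, with a median span of 61704 bp against 24130 bp for protein-coding genes, and a longer span can hold more regions. The part of length in these shares was not tested.

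A listed RBBP4 region was present in 43 of the 57 genes (75.4%, background 51.6%) and a P300 region in 30 (52.6%, background 23.6%). Of the 57, 22 had regions for both proteins, 21 for RBBP4 only and 8 for P300 only. Regions for both proteins lay in 3429 of 20033 protein-coding genes. In 14 repair genes an RBBP4 region was higher and a P300 region lower. That joint pattern was not counted over all protein-coding genes, where RBBP4 regions were also mostly higher and P300 regions mostly lower. Whether it is more frequent at repair genes was therefore not tested. No region of either table was found at MDC1, the scaffold that reads phosphorylated H2AX, at MGMT, the methyltransferase that reverses O-6-methylguanine, at PARP2, at RAD51D and XRCC3, which act in homologous recombination, or at SLFN11, which blocks stressed replication forks.

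**Figure D1:**
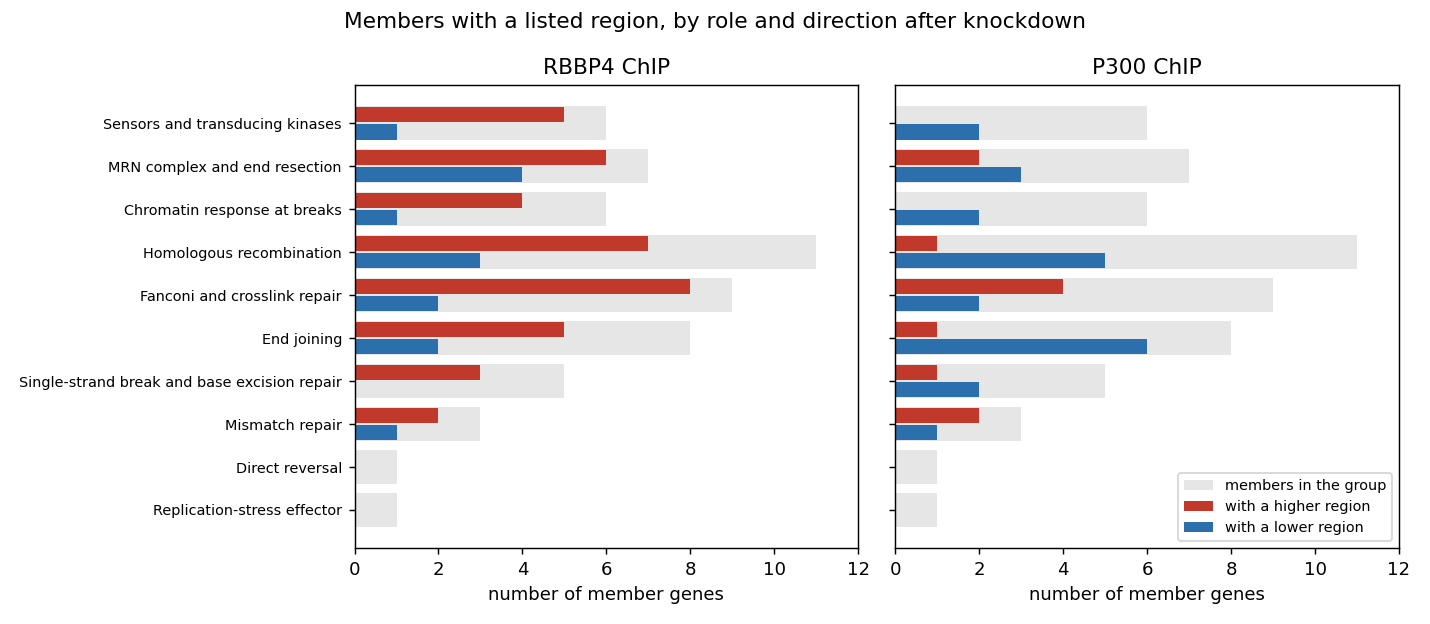
Number of repair genes (horizontal axis) with at least 1 listed region, by role group (vertical axis), for RBBP4 on the left and P300 on the right. Grey bars give the size of each group, red bars the genes with a region higher after CSNK2B siRNA and blue bars those with a lower region. For RBBP4 the red bar is the longer in every group with a region, and for P300 the blue bar is the longer except in Fanconi and mismatch repair.

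The gene starts gave the clearest pattern. A RefSeq start was tabulated for 52 of the 57 genes, the missing ones being PRKDC, XRCC5, NBN, WRN and FANCI. Within 3000 bp of a start lay 37 RBBP4 regions at 32 of these genes, and 37 of 37 were higher. That is 61.5% of the 52 genes, against a background of 36.1% of genes with a tabulated start. Over all protein-coding genes 96.8% of the RBBP4 regions at starts were higher, so the direction itself is that of the table. By the authors' deposited table, 28 of the 52 genes (53.8%) had a start region that was higher with an adjusted p below 0.05, against 29.9% of 15842 genes. In the lower direction that count was 0 of 52, against a background of 0.316%. The median region at a repair gene start was 583 bp wide and held 31 reads over both libraries, while that at all starts was 515 bp wide and held 23 reads. In 27 genes the region lay directly over the start, a count that was not made over all protein-coding genes.

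The promoters of 5 genes are shown because their RBBP4 start regions had the largest folds among those with an adjusted p below 0.05. Each line gives the 250 bases before the RefSeq start, 5′ to 3′ on the gene's strand, from RefSeq on GRCh38.p14, and each lies wholly inside the RBBP4 region. Capitals mark matches to the motifs searched on both strands: the CCAAT box (CCAAT), an E2F-type motif (GGCGGGAA or TTTGGCGC), an ETS motif (CCGGAAGT), the GC box (GGGCGG), an E-box (CACGTG) and the cyclic AMP response element (TGACGTCA). The NRF1 motif and a palindrome of the TCTCGCG type were searched as well and had no match in these windows.
ATM, chr11:108222817-108223066, plus strand: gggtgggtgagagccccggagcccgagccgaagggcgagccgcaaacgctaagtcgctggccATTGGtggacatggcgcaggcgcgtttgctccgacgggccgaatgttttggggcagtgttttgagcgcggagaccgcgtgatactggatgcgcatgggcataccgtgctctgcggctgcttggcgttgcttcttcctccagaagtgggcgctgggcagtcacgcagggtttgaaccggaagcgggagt
NHEJ1, chr2:219160556-219160805, minus strand: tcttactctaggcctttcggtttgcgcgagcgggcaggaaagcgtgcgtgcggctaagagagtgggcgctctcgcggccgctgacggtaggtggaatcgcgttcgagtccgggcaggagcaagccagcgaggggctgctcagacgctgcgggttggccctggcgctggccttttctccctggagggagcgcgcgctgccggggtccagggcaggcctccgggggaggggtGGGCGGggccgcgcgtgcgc
LIG1, chr19:48170345-48170594, minus strand: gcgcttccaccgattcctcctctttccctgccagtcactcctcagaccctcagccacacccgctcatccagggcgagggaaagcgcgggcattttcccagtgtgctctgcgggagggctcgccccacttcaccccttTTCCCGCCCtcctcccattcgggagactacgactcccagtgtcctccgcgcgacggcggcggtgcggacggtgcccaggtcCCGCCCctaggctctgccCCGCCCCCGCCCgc
BRCA2, chr13:32315258-32315507, plus strand: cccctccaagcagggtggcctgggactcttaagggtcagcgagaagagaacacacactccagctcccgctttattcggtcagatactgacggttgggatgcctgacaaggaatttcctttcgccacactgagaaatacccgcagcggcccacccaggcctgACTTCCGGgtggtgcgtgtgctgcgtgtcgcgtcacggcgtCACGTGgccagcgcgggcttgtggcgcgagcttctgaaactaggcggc
EXO1, chr1:241847954-241848203, plus strand: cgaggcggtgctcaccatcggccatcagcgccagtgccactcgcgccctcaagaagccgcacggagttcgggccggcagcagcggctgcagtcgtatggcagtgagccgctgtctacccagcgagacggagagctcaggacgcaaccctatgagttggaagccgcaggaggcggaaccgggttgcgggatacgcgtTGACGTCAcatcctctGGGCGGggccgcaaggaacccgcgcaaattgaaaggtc

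The region over the ATM promoter held 33 reads (38.4 RPKM) after CSNK2B siRNA and 1 read (1.69 RPKM) after non-targeting siRNA, a 22.8-fold higher density (3.81 to 926). ATM is the apical kinase of double-strand breaks, and its promoter is shared with NPAT, whose start lies in the same region. The NHEJ1 promoter, of the end-joining factor XLF, held 29 reads after CSNK2B siRNA and 2 after non-targeting siRNA, 10-fold higher (2.53 to 86.5). LIG1 encodes the ligase that seals Okazaki fragments and excision patches. Its promoter held 14 knockdown reads and 1 control read, and its interval was wide (9.66-fold, 1.47 to 408). The promoter of BRCA2, a mediator of homologous recombination, held 23 reads after CSNK2B siRNA and 2 after non-targeting siRNA, 7.93-fold higher (1.96 to 69.4), and the region also covers a start of ZAR1L. EXO1 is a nuclease of resection and mismatch repair. Its promoter held 51 reads after CSNK2B siRNA and 5 after non-targeting siRNA, 7.04-fold higher (2.83 to 22.6), the narrowest interval of the 5.

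Promoter windows of 17 repair genes lay wholly inside a higher RBBP4 region, and 1 window was taken per gene. The 22182 windows set beside them are all tabulated protein-coding starts, which can be several per gene and need not lie in an RBBP4 region. The shares thus differ in basis, and the parts of repair genes and of RBBP4 regions in them were not tested. The E2F-type motif occurred in 5 of the 17 (29.4%), at BLM, DCLRE1C, FANCC, LIG1 and RAD52, while 4.12% of 22182 protein-coding promoter windows of the same length held it. The CCAAT box was in 6 of 17 (35.3%) against 32.7% of all windows. The GC box was in 11 (64.7%) against 53.7%. The cyclic AMP response element was in 2 (11.8%), EXO1 and XRCC2, against 2.02%. The ETS motif and the E-box were each in 1 window (5.88%), that of BRCA2, against 4.4% and 7.38%. The NRF1 motif was in 0 of 17, against 284 of 22182 windows, and the palindrome in 0 of 17, against 111. The median GC content was 64.4% in the 17 windows and 62% in all windows. These matches are letters in a window, with no measure of a factor bound there, and E2F-type letters may share bases with a GC box. The E2F-type matches outside LIG1 are shown with 30 bases each, the match in capitals, on the gene's strand.
BLM, chr15:90717260-90717289, plus strand: cagcctgagggGGCGGGAAcagatgtccga
DCLRE1C, chr10:14954263-14954292, minus strand: tgtgtttgttgGGCGGGAAtgagccttgca
FANCC, chr9:95317351-95317380, minus strand: ggcgagaggggTTCCCGCCggcgcagggct
RAD52, chr12:949911-949940, minus strand: cgagggaagctGGCGGGAAgtaggaggcag

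**Figure D2:**
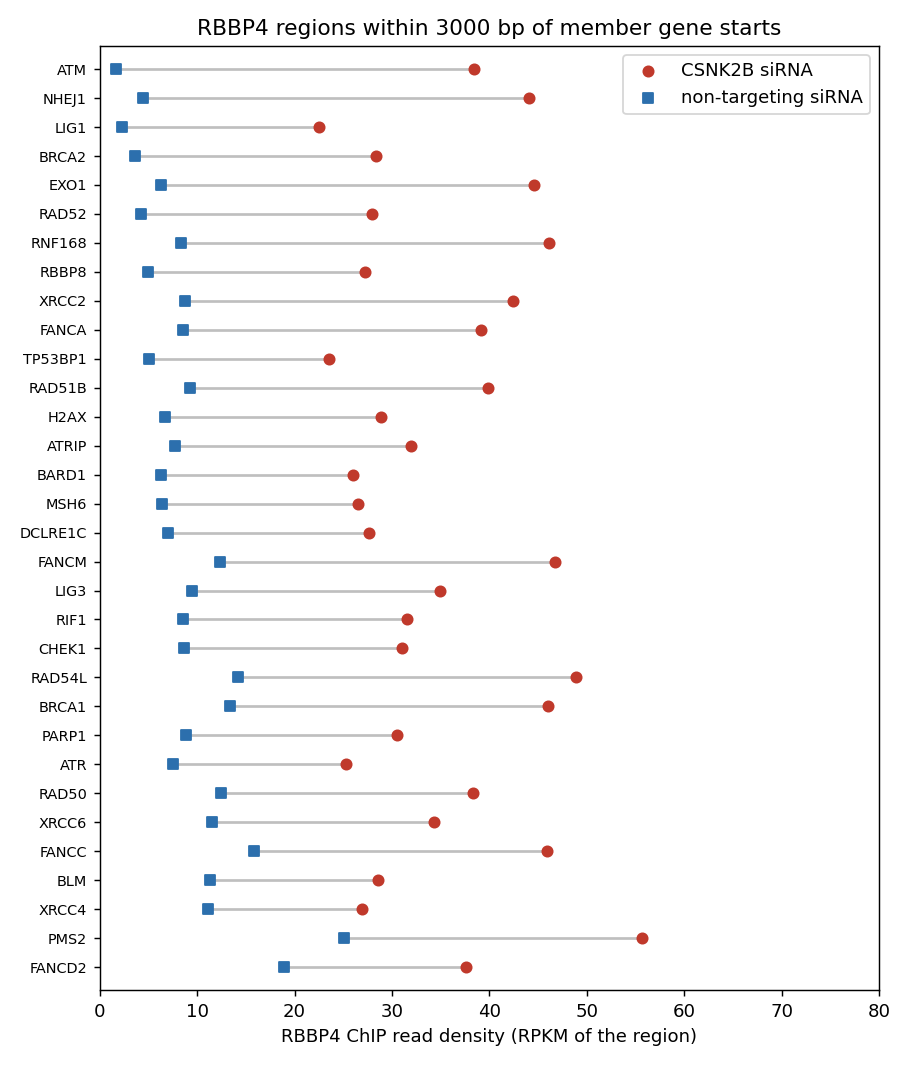
RBBP4 read density (RPKM, horizontal axis) of the start region with the most reads at each of 32 repair genes (vertical axis), after CSNK2B siRNA (red circles) and after non-targeting siRNA (blue squares), with 1 library each. The genes are ordered by the log2 ratio of RPKM with 1 added, from ATM at the top to FANCD2 at the bottom. Every red circle lies to the right of its blue square.

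Among the sensors and transducing kinases, 5 of 6 genes had a higher RBBP4 region and 4 of these had it at the start. ATR, the kinase of stalled forks, held 39 reads (25.3 RPKM) at its start after CSNK2B siRNA and 8 (7.53 RPKM) after non-targeting siRNA, 3.36-fold higher (1.55 to 8.33). CHEK1, the kinase that ATR activates, held 52 knockdown and 10 control reads, 3.59-fold higher (1.8 to 7.92). Both intervals exclude equal density. ATRIP, the partner through which ATR reaches single-stranded DNA, held 12 reads after CSNK2B siRNA and 2 after non-targeting siRNA, and its interval includes equal density (4.14-fold, 0.921 to 38.1). CHEK2, the target kinase of ATM, had its region in the gene body, with 22 reads after CSNK2B siRNA and 5 after non-targeting siRNA. TOPBP1, the activator of ATR, had no RBBP4 region.

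In the MRN complex and end resection, 6 of 7 genes had a higher RBBP4 region. RAD50, the ATPase of the MRN complex, held 27 reads at its start after CSNK2B siRNA and 6 after non-targeting siRNA (3.1-fold, 1.26 to 9.19), in a region that also holds a start of IL5. NBN, the third subunit of the complex, held 32 knockdown and 6 control reads in a region at an end of its span. RBBP8 encodes CtIP, which starts resection. Its start held 32 reads after CSNK2B siRNA and 4 after non-targeting siRNA, 5.52-fold higher (1.96 to 21.5). The helicase gene BLM held 33 knockdown and 9 control reads at its start, a smaller difference (2.53-fold, 1.18 to 6.01). WRN, a helicase of the same RecQ family, held 17 knockdown and 3 control reads at an end of its span. MRE11, the nuclease of the complex, stood apart, since its 1 RBBP4 region was lower.

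In the chromatin response at breaks, 4 of 6 genes had a higher region at the start. H2AX, the histone variant that ATM phosphorylates, held 50 reads (28.9 RPKM) after CSNK2B siRNA and 8 (6.7 RPKM) after non-targeting siRNA, 4.31-fold higher (2.03 to 10.5). TP53BP1, which shields broken ends from resection, held 61 knockdown and 9 control reads over 2147 bp, 4.67-fold higher (2.31 to 10.7). RNF168, the ligase that ubiquitylates H2A, held 24 reads after CSNK2B siRNA and 3 after non-targeting siRNA, 5.52-fold higher (1.68 to 28.6). All 3 intervals exclude equal density. The start of RIF1, the effector of TP53BP1, held 16 knockdown and 3 control reads, and its interval only just does so (3.68-fold, 1.05 to 19.7).

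In homologous recombination, 7 of 11 genes had a higher RBBP4 region and the 7 had one at the start. BRCA1, the E3 ligase that promotes resection, has 2 such regions. The first held 50 reads (46 RPKM) after CSNK2B siRNA and 10 (13.4 RPKM) after non-targeting siRNA, 3.45-fold higher (1.73 to 7.63). The second, which it shares with the start of NBR1, held 33 knockdown and 7 control reads. BARD1, the obligate partner of BRCA1, held 24 reads after CSNK2B siRNA and 4 after non-targeting siRNA (4.14-fold, 1.42 to 16.4). XRCC2, a factor of strand exchange, held 49 knockdown and 7 control reads, 4.83-fold higher (2.18 to 12.6). RAD52, which anneals single strands, held 29 reads after CSNK2B siRNA and 3 after non-targeting siRNA, 6.67-fold higher (2.07 to 34.2). RAD54L, a DNA translocase of strand exchange, held 25 knockdown and 5 control reads (3.45-fold, 1.3 to 11.5). At these 5 genes the folds of the region with the most reads ran from 3.45 to 6.67 with overlapping intervals, so no order among them was detectable at this depth. RAD51B held 50 knockdown and 8 control reads in a region 2731 bp from a start. PALB2, which bridges BRCA1 and BRCA2, and RAD51C had no RBBP4 region.

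In Fanconi and crosslink repair, 8 of 9 genes had a higher RBBP4 region, 4 of them at the start. FANCM, the translocase that recognises a stalled crosslink, held 44 reads at its start after CSNK2B siRNA and 8 after non-targeting siRNA, 3.79-fold higher (1.77 to 9.33). FANCA, a core complex subunit, held 20 knockdown and 3 control reads, in a region 89 bp from the start (4.6-fold, 1.36 to 24.2). FANCD2, the subunit that is monoubiquitylated at a crosslink, held 26 reads after CSNK2B siRNA and 9 after non-targeting siRNA, and its interval includes equal density (1.99-fold, 0.905 to 4.83). ERCC1, a subunit of the crosslink endonuclease, held 9 knockdown reads and 1 control read in its body. The highest fold of the group lay inside a gene too. BRIP1, a helicase that binds BRCA1, held 42 reads (50.7 RPKM) after CSNK2B siRNA and 2 (3.5 RPKM) after non-targeting siRNA in a region 106516 bp from its start, 14.5-fold higher (3.77 to 124). FANCI, the partner of FANCD2, held 24 knockdown and 6 control reads at an end of its span. FANCL, the ligase of FANCD2, held 13 knockdown and 3 control reads in a region 1277 bp outside its span. That region lies in the span of VRK2, and the interval includes equal density (2.99-fold, 0.821 to 16.4).

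In end joining, 5 of 8 genes had a higher RBBP4 region. DCLRE1C encodes the nuclease Artemis. Its start held 23 reads after CSNK2B siRNA and 4 after non-targeting siRNA, 3.97-fold higher (1.36 to 15.8). The Ku subunit genes XRCC6 and XRCC5 each had 3 higher regions and no lower one. The XRCC6 region with the most reads held 21 after CSNK2B siRNA and 3 after non-targeting siRNA (4.83-fold, 1.44 to 25.3). It lay 2783 bp past the far end of the gene. Near the XRCC6 start, 1 region held 14 knockdown and 2 control reads (4.83-fold, 1.11 to 43.8). The other held 13 knockdown and 3 control reads, and its interval includes equal density (2.99-fold, 0.821 to 16.4). The XRCC5 region with the most reads held 20 knockdown and 4 control reads, at an end of its span (3.45-fold, 1.16 to 13.9). XRCC4, the scaffold of ligase IV, held 14 knockdown and 4 control reads at its start, with an interval that includes equal density (2.41-fold, 0.758 to 10.1). Its body held the larger count, 65 reads after CSNK2B siRNA and 18 after non-targeting siRNA (2.49-fold, 1.46 to 4.46). LIG4 itself and POLQ, the polymerase of microhomology-mediated joining, had no RBBP4 region.

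The remaining groups are small. In single-strand break and base excision repair, PARP1, the polymerase that signals nicks, held 20 reads at its start after CSNK2B siRNA and 4 after non-targeting siRNA (3.45-fold, 1.16 to 13.9). LIG3, the ligase that works with XRCC1, held 16 knockdown and 3 control reads. In mismatch repair, MSH6, a subunit of mismatch recognition, held 12 reads at its start after CSNK2B siRNA and 2 after non-targeting siRNA, and its interval includes equal density (4.14-fold, 0.921 to 38.1). PMS2, the endonuclease of the pathway, had 3 higher regions with 159 reads in all after CSNK2B siRNA and 32 after non-targeting siRNA. PMS2 has near-identical pseudogene copies, so the placing of its reads is uncertain, and its start region also holds a start of AIMP2.

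The genes with the most RBBP4 regions, those at starts included, were RAD51B, a homologous recombination gene, with 25 of the 91 higher regions and FANCC, a Fanconi core complex subunit, with 11. At RAD51B the 25 regions together covered 17909 bp and held 1056 reads after CSNK2B siRNA and 190 after non-targeting siRNA. Among them a region with 40 knockdown and 5 control reads lies 2959 bp outside the span and holds a start of ZFYVE26. The log2 ratios of the 24 with reads in both libraries ranged from 0.65 to 2.73. The remaining region held 15 knockdown and 0 control reads, at least 3.45-fold higher with 3 reads in place of 0. Of the 25, 20 were called in the authors' deposited table at an adjusted p below 0.05. The strongest by reads, chr14:68139628-68140915, lay 316036 bp from the nearest RAD51B start and held 134 reads (86.1 RPKM) after CSNK2B siRNA and 13 (12.1 RPKM) after non-targeting siRNA, 7.11-fold higher (4.02 to 13.7). From 281 to 349 kb into the gene the regions crowd together, whereas past 484 kb they are sparse and 2 are lower. In FANCC the 11 regions covered 9641 bp and held 645 reads after CSNK2B siRNA and 147 after non-targeting siRNA, and 10 had an adjusted p below 0.05. Their log2 ratios ranged from 1.02 to 2.07. The region over the FANCC start, chr9:95316064-95317958, held 105 reads (45.9 RPKM) after CSNK2B siRNA and 25 (15.8 RPKM) after non-targeting siRNA, 2.9-fold higher (1.86 to 4.68). The strongest by reads in the gene body held 118 knockdown and 23 control reads (3.54-fold, 2.25 to 5.8), where the span overlaps AOPEP.

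Longer genes hold more regions, so the 3356 protein-coding genes of at least 100000 bp were ranked by higher RBBP4 regions per 100 kb. Regions in the flanks were counted too, among them the RAD51B region over a start of ZFYVE26. FANCC, with 5.03, ranked 34 and RAD51B, with 2.9, ranked 190, against a median of 0.769. MSH3, PRKDC, POLQ and MGMT also exceed 100000 bp and had 0 higher regions. They shared rank 2428 of 3356 with all other long genes that had none, so having none was common.

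**Figure D3:**
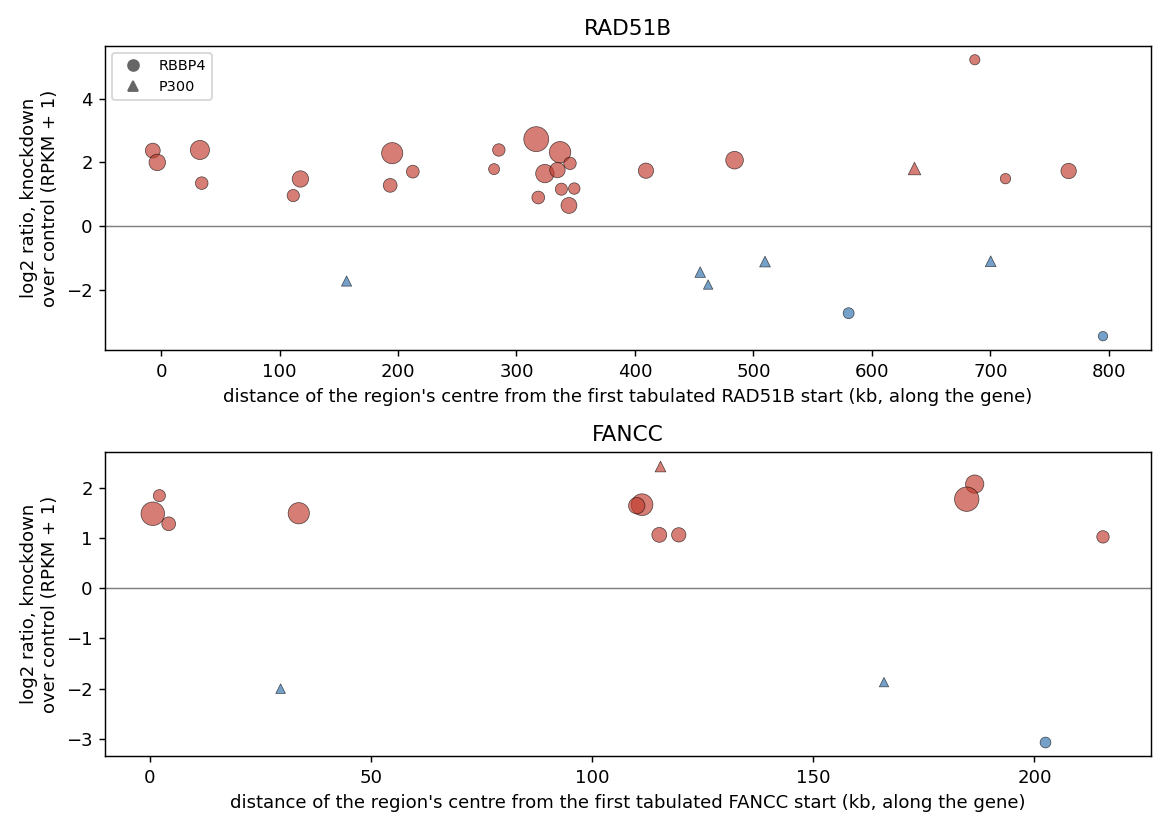
Listed regions along RAD51B (upper panel) and FANCC (lower panel), by the distance of each centre from the first tabulated start (horizontal axis, kb) and the log2 ratio of knockdown over control RPKM with 1 added (vertical axis). Circles are RBBP4 and triangles P300, red is higher and blue lower after CSNK2B siRNA, and a larger marker has more reads. The RBBP4 circles lie above 0 except for 2 in RAD51B and 1 in FANCC, and the P300 triangles lie below 0 except for 1 in each gene.

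RBBP4 regions that were lower after CSNK2B siRNA numbered 21, in 14 genes. Of these 18 lay in gene bodies (85.7%), 3 at gene ends (14.3%) and 0 at starts. Over all protein-coding genes 87.4% of the lower RBBP4 regions lay in gene bodies, 8.16% at ends and 4.45% at starts, a similar placing. Summed over the libraries their median was 13 reads, between 9 and 20, where the higher regions held a median of 30 and up to 147. In the authors' deposited table the adjusted p of 10 of the 21 was below 0.05, in 9 genes (15.8%), against a background of 5.6% of protein-coding genes. MRE11, MSH3 and PRKDC had lower RBBP4 regions only. MRE11 held 1 read after CSNK2B siRNA and 11 after non-targeting siRNA, 15.9-fold lower (2.32 to 686). MSH3, which recognises insertion and deletion loops, had a region with 3 knockdown and 15 control reads (7.25-fold lower, 2.05 to 39.1) and a second with 0 knockdown and 9 control reads, at least 4.35-fold lower with 3 reads in place of 0. PRKDC, the catalytic subunit of DNA-dependent protein kinase, had 0 reads after CSNK2B siRNA and 10 after non-targeting siRNA in 1 region, at least 4.83-fold lower, and 2 knockdown and 11 control reads in another.

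The other 11 genes with a lower region had a higher one too. They were ATR, BRCA1, EXO1, FANCC, FANCD2, NHEJ1, RAD51B, RAD52, RBBP8, TP53BP1 and WRN, and their lower regions held 0 to 4 knockdown reads and 8 to 16 control reads. The region was called as a peak in the control library in every case, so this separation follows from how regions were listed. NHEJ1 had the 10-fold higher promoter described above and 2 lower regions in its body, with 5 reads in all after CSNK2B siRNA and 26 after non-targeting siRNA. RBBP8 likewise had 51 reads after CSNK2B siRNA and 9 after non-targeting siRNA in 2 higher regions, and 6 knockdown and 29 control reads in 2 lower ones. In TP53BP1 the body held 3 reads after CSNK2B siRNA and 18 after non-targeting siRNA over 2 regions. In NHEJ1, RBBP8 and TP53BP1 the region at the start was the higher one and the lower ones lay elsewhere in the gene or its flank. More RBBP4 reads lay in tested regions after CSNK2B siRNA than after non-targeting siRNA. The part of that difference in the lower regions was not tested.

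**Figure D4:**
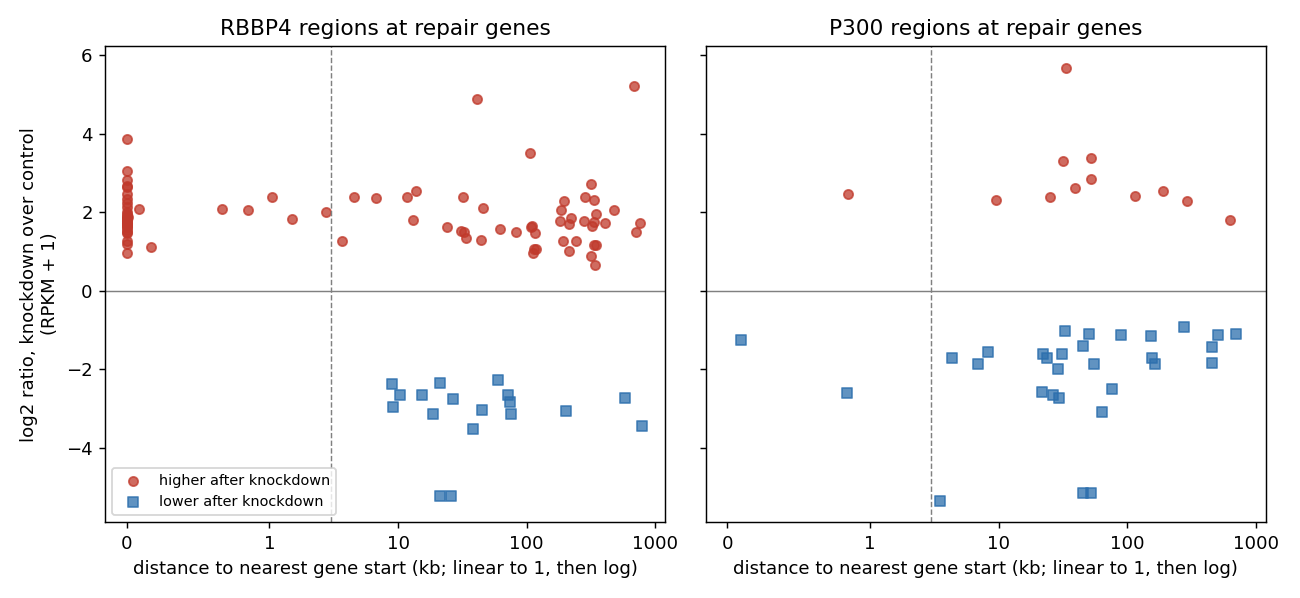
Log2 ratio of knockdown over control RPKM with 1 added (vertical axis) against the distance to the nearest tabulated start of the repair gene (horizontal axis, kb, linear to 1 and logarithmic beyond), for RBBP4 on the left and P300 on the right. Red circles are regions higher and blue squares regions lower after CSNK2B siRNA, and the dashed line marks 3000 bp. Regions of the 5 genes with no tabulated start are left out. Left of that line the RBBP4 panel holds red circles only, while the P300 panel holds 1 circle and 2 squares.

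Of the 45 P300 regions at the repair genes, 38 were inside genes (84.4%), 4 at ends and 3 at starts. Over all P300 regions at protein-coding genes 86.4% were inside genes, so the placing is that of the table. At starts, 1 gene (1.92%, background 1.73%) had a higher region and 2 genes (3.85%, background 2.37%) a lower one. The median region held 14 reads in the libraries together, against 12 for all at protein-coding genes. The authors' deposited table calls 0 of the 45 at an adjusted p of 0.05, and there the lowest adjusted p of any P300 region was 0.26 and all unadjusted values were below 0.05. The intervals of higher and lower regions cannot be set against each other, because regions were listed on the whole-library scale and the folds used here lie above it by the shift given earlier.

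Lower P300 regions alone were found in 19 genes. With genes of both directions counted, the end-joining group had the most lower ones, 6 of 8. XRCC5 had 2 lower regions, with 4 reads in all after CSNK2B siRNA and 23 after non-targeting siRNA, and the stronger was 5.63-fold lower (1.27 to 51.4). LIG4, the ligase of the pathway, had its region 840 bp from the start, with 1 knockdown and 8 control reads (6.93-fold lower, 0.929 to 307). POLQ held 3 reads after CSNK2B siRNA and 12 after non-targeting siRNA. Both of these intervals include equal density. In homologous recombination it was 5 of 11 genes. The lower region of RAD51C had the most reads of the group. It held 8 after CSNK2B siRNA and 19 after non-targeting siRNA (2.06-fold lower, 0.86 to 5.43). BRCA2 held 1 knockdown and 8 control reads, and PALB2 and RAD52 each held 3 knockdown and 11 control reads. The lower P300 regions of DCLRE1C, NHEJ1, RBBP8 and RIF1 were of the same size, with 1 to 5 knockdown reads and 8 to 13 control reads.

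In the MRN and resection group the directions were mixed. BLM held 1 P300 read after CSNK2B siRNA and 12 after non-targeting siRNA, 10.4-fold lower (1.54 to 444). MRE11 held 1 knockdown and 9 control reads in its stronger region by fold (7.79-fold lower, 1.08 to 342). Its complex partners went the other way. RAD50 held 15 reads after CSNK2B siRNA and 3 after non-targeting siRNA, 5.77-fold higher (1.63 to 31.1), and NBN held 11 knockdown reads and 1 control read, 12.7-fold higher (1.85 to 547). Thus at MRE11 both proteins were lower and at RAD50 and NBN both were higher, in regions that do not overlap. Among the sensors, ATM and TOPBP1 each held 0 reads after CSNK2B siRNA and 7 after non-targeting siRNA, at least 2.02-fold lower with 3 reads in place of 0. RNF8 held 0 knockdown and 8 control reads, at least 2.31-fold lower. PARP1 held 1 read after CSNK2B siRNA and 9 after non-targeting siRNA (7.79-fold lower, 1.08 to 342).

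Higher P300 regions lay in 4 of 9 genes of the Fanconi group and in 2 of 3 of mismatch repair. ERCC1, which with ERCC4 forms the endonuclease that unhooks crosslinks, had the single higher P300 region at a repair gene start. It held 21 reads (57.8 RPKM) after CSNK2B siRNA and 4 (9.53 RPKM) after non-targeting siRNA, 6.06-fold higher (2.05 to 24.3). FANCA held 11 knockdown reads and 1 control read (12.7-fold, 1.85 to 547), and FANCM 12 knockdown and 2 control reads (6.93-fold, 1.54 to 63.7). ERCC4 itself was lower, with 3 reads after CSNK2B siRNA and 12 after non-targeting siRNA, in an interval that includes equal density. XRCC1, the scaffold of single-strand break repair, held 11 reads after CSNK2B siRNA and 0 after non-targeting siRNA at an end of its span, at least 4.23-fold higher with 3 reads in place of 0. PMS2 held 14 knockdown and 3 control reads in its body (5.39-fold, 1.5 to 29.2). FANCC, MSH3, RAD51B and XRCC4 had P300 regions in both directions. XRCC4 had 3 higher, with 40 reads in all after CSNK2B siRNA and 7 after non-targeting siRNA, and 2 lower, with 10 knockdown and 27 control reads. In MSH3 a lower region with 7 reads after CSNK2B siRNA and 18 after non-targeting siRNA lay near a higher one with 14 knockdown and 2 control reads.

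**Figure D5:**
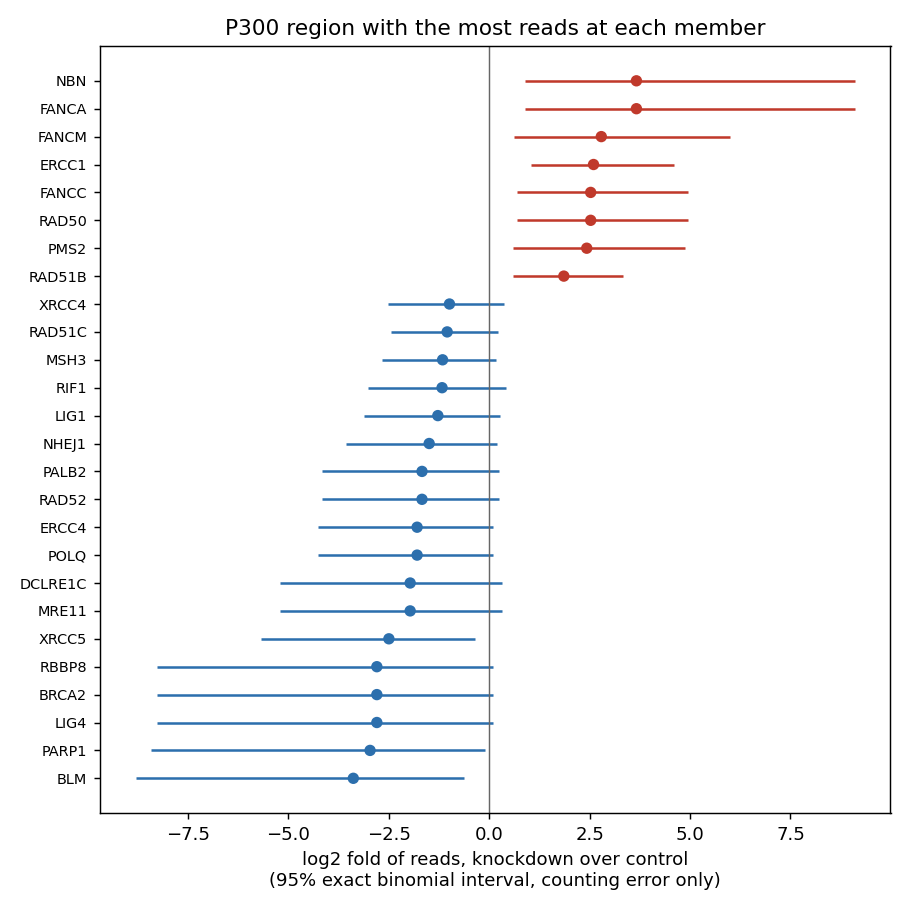
Log2 fold of P300 reads, knockdown over control (horizontal axis), for the region with the most reads at each of 26 repair genes (vertical axis), with 95% exact binomial intervals for counting error. Red is higher and blue lower after CSNK2B siRNA. ATM, RNF8, TOPBP1 and XRCC1 are left out because 1 of their libraries holds 0 reads. The folds run from NBN and FANCA at the top to BLM at the bottom. Regions were listed on the authors' whole-library scale, which differs from this axis by -0.43, so how often red and blue intervals reach 0 was set by the listing and the scaling.

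In 4 of the 22 genes with regions of both proteins (18.2%) a region of each lay within 1000 bp of the other, against 496 of 3429 protein-coding genes with both (14.5%). At the LIG1 promoter printed above, RBBP4 held 14 reads after CSNK2B siRNA and 1 after non-targeting siRNA, while a P300 region that shares 185 bp with it held 5 knockdown and 14 control reads. It is the 1 place of the 4 where the directions differ, and the P300 interval includes equal density (2.42-fold lower, 0.825 to 8.6). In the body of FANCC, RBBP4 held 34 knockdown and 11 control reads and P300 15 knockdown and 3 control reads, over 251 shared bp, so both were higher. In NHEJ1 and at RBBP8 both were lower, with gaps of 201 bp and 3 bp between the regions. Of the 14 genes with a higher RBBP4 and a lower P300 region, the LIG1 promoter was thus the one where the regions coincide.

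The pathway was also read in 78 further repair genes that are not among the 57, taken from textbook lists of excision repair, translesion synthesis, checkpoint clamps and related factors. An RBBP4 start region that was higher with an adjusted p below 0.05 was present in 35 of the 66 with a tabulated start (53%), close to the share of the 57. An RBBP4 region at least 2-fold lower was present in 12 (15.4%) and a P300 region at least 2-fold lower in 12 (15.4%), both near the background. TDP1, the phosphodiesterase that frees trapped topoisomerase 1, had the most RBBP4 reads, 122 at its start after CSNK2B siRNA and 23 after non-targeting siRNA (3.66-fold, 2.33 to 5.99). SHLD1, a shieldin subunit that acts with TP53BP1, followed with 68 knockdown and 14 control reads. RPA3 and RMI1 came next with 57 knockdown and 13 control reads for RPA3 and 56 knockdown and 14 control reads for RMI1. The TDP1 region also holds a start of EFCAB11 and the RMI1 region a start of HNRNPK. That of RPA3 lies inside the gene and holds a start of UMAD1. FEN1, the flap endonuclease of excision repair and replication, had the most reads among lower P300 regions, 7 after CSNK2B siRNA and 18 after non-targeting siRNA. At the same gene start FEN1 had RBBP4 higher, with 35 knockdown and 4 control reads, in a region that also holds a start of TMEM258.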

How the data were processed

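ChIP-seq tables for RBBP4 and P300 were used, with 1 library per antibody and arm. The authors deposited RPKM per region, a log2 fold change, and a p-value with its adjusted value, per the file headers. The submitters' processing notes name the build GRCh38, Bowtie2 2.4.5, DiffBind 3.4.11 and MACS2 2.2.7.1, beside Trim Galore 0.6.7, FastQC and ChIPseeker 1.28.3; the role of each is not given in the sources used here.

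RPKM times width times the reads in all tested regions gave whole reads, within 0.01, for 98.3% of RBBP4 and 99.4% of P300 regions. For 596 RBBP4 and 131 P300 regions the width was instead chosen so that the reads came out whole. The total behind the RPKM and the whole-library base of the authors' fold change were inferred, not given. Folds used these reads, with 3 reads in place of 0 and exact binomial intervals from scipy 1.17.1 (Python 3.11.15, pandas 2.3.3). Scripts were tested on simulated reads. With 1 library per arm no test of conditions was possible.

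Genes were RefSeq spans with 3000 bp on both sides; starts and strand came from the RefSeq promoter table of GRCh38.p14, and exons were not used. The repair genes, role groups and lists were chosen with earlier results of these data known. Each gene could be named, by its region with the most reads in each direction and its start region; some regions outside this rule were named after their values were seen. Alternatives were a 4-fold threshold, a read minimum, stricter p-values, other distances, another pseudocount and whole-library scaling.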

Additional observations from a re-analysis of the deposited data

How the results depend on the processing

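The main counts and medians were recomputed under each alternative. At a 4-fold threshold 19 of the 39 genes with a higher RBBP4 region and 10 of the 23 with a lower P300 region were counted. With at least 20 reads over both libraries the counts were 1 of 14 for lower RBBP4, 3 of 11 for higher P300 and 2 of 23 for lower P300. With an unadjusted p below 0.01 in the authors' deposited table they were 9, 3 and 3 in that order. The median log2 ratio of RBBP4 regions was 1.41 with 5 RPKM added, 1.82 with 1 value per gene and 2.30 on the authors' whole-library scale. That of P300 regions was -1.21 with 5 RPKM added, -1.90 on the whole-library scale, and -1.55 without RAD51B, an alternative chosen after seeing the data. With at least 20 reads it was 0.45. At that depth 3 higher and 3 lower P300 regions were left, so this median gives no direction. The count of 28 genes with a higher RBBP4 start region was 27 within 1000 bp, 22 at a stricter adjusted p and 24 with at least 20 reads.

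No paired analysis was possible because each antibody and arm had 1 library. The depth of single regions, often under 20 reads, limits every fold.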

Other observations

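Some further repair genes with a higher RBBP4 region at their start are given here, chosen after their values were seen. Others had RBBP4 regions in the gene body alone, among them POLK and ERCC6 with a higher region and DDB1 with a lower one. OGG1, the glycosylase of oxidised guanine, held 30 reads after CSNK2B siRNA and 0 after non-targeting siRNA at its start, at least 6.9-fold higher with 3 reads in place of 0. POLH, the polymerase that bypasses ultraviolet lesions, held 17 knockdown reads and 1 control read (11.7-fold higher, 1.84 to 490), in a region that also holds a start of XPO5. XPA, the damage verifier of nucleotide excision repair, held 23 knockdown and 2 control reads (7.93-fold higher, 1.96 to 69.4). XPC, which finds the lesions, held 25 knockdown and 3 control reads at its start, in a region that also holds a start of LSM3. XPC had 2 lower regions in its body. REV1, a scaffold of bypass polymerases, held 38 knockdown and 5 control reads at its start (5.24-fold higher, 2.06 to 17.1). PCNA, the sliding clamp, held 43 knockdown and 5 control reads in its stronger start region (5.93-fold higher, 2.35 to 19.2).

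UIMC1, the ubiquitin-binding subunit of the BRCA1-A complex, was the single further repair gene whose lower RBBP4 region passed an adjusted p of 0.05 by the authors' deposited table. That region held 1 knockdown and 15 control reads (21.7-fold lower, 3.35 to 915), while its start region was higher with 19 knockdown and 4 control reads.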
